A study of Mus musculus with 8 samples.

Results

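Keratins and bile duct genes were followed in mouse liver RNA from the 4 groups of a fasting and refeeding experiment. The 9 genes were taken by symbol from the 23337 symbols counted, and all 9 passed the filter on low counts. They are the hepatocyte keratins *Krt8* and *Krt18*, the stress-linked keratin *Krt23*, and the bile duct genes *Krt7*, *Krt19*, *Epcam*, *Cftr*, *Sox9* and *Spp1*. They were chosen by their measured levels and differences between groups in earlier results of these same libraries, so their fold changes and adjusted p-values describe these genes and are not independent support for a pattern among them.

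The livers came from C57BL/6 mice aged 12 weeks. The groups were WT fasted, HRD1Alb fasted, WT refed and HRD1Alb refed, with 2 libraries in each and 8 in all. Fasting was overnight, and refeeding lasted 4 h after the fast. HRD1Alb mice carry floxed *HRD1* alleles and a Cre transgene under the albumin promoter (HRD1 f/f Alb-Cre+), which acts in hepatocytes and their precursors from early liver development. The labels give their genotype as Hrd1-/-, and the control libraries are labelled only WT. The paper defines its control mice as HRD1 f/f Alb-Cre-, and its sequencing methods call the controls WT. HRD1, listed under its symbol *Syvn1*, is a ubiquitin ligase of the endoplasmic reticulum membrane that marks misfolded proteins for degradation. Sex, litter and the number of animals behind a library were not given in the sources used here, so the p-values measure the spread between these libraries, which may be partly technical.

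Keratins are the intermediate filament proteins of epithelial cells. A filament is built from pairs of one type I keratin (*Krt18*, *Krt19*, *Krt20*, *Krt23*, *Krt25*) and one type II keratin (*Krt7*, *Krt8*). Adult hepatocytes rely on the pair of keratin 8 and keratin 18, and the cells that line the bile ducts, the cholangiocytes, add keratin 7 and keratin 19. Hepatocyte keratins are known to rise when the liver is stressed, and keratin 23 is a minor keratin linked to liver injury.

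Total counts were 40210576 to 49117080 per library, and 15935 to 16670 symbols had a count. Levels are given as CPM, edgeR counts scaled to a common library size after TMM normalisation, where 3 counts in a library equal 0.0508 to 0.0788 CPM. The test was edgeR's quasi-likelihood test with Benjamini-Hochberg adjustment over 14328 genes, and a gene was called at an adjusted p under 0.05. An exact permutation test of 2 libraries against 2 cannot give a p below 0.333, so each adjusted p rests on a spread shared across genes. The refed libraries labelled HRD1Alb stood apart, with 3204 genes at least 2-fold different between the replicates against 424 to 1141 in the other groups, and the replicate ratio fell with transcript length there (Spearman rho = -0.583 across genes). *Syvn1* had 4437 and 4101 counts in WT fasted liver and 1668 and 1733 in HRD1Alb fasted liver (log2 difference -1.72, SE 0.561, adjusted p = 0.170). In refed liver it had 25800 and 11608 counts in WT and 26768 and 6037 in the libraries labelled HRD1Alb, so those groups overlapped. The counts cover the whole gene and the deleted exons were not given, so they do not check the deletion, and the refed groups are taken as labelled. The keratin *Krt20* had 0 to 2 counts in the 4 WT libraries and 63 to 82 in the 4 HRD1Alb libraries, the same way in fasted and refed liver. It was named because it was called between these labelled groups, so it is no independent check of the labels.

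The hepatocyte pair was by far the most abundant of the 9 genes. Per kilobase of exon, *Krt18* stood at 163 ± 45.9 CPM (SD, n = 2) and *Krt8* at 42.6 ± 6.58 in WT fasted liver. *Spp1*, which encodes the secreted protein osteopontin, followed at 21.7 ± 8.69 CPM per kilobase. *Sox9*, a transcription factor of the biliary lineage, stood at 3.46 ± 0.0661 and *Krt23* at 3.20 ± 0.746, within their spread of each other. *Krt19* stood at 1.46 ± 1.08, *Epcam*, a cell adhesion molecule of duct cells, at 0.956 ± 0.583 and *Krt7* at 0.251 ± 0.225. *Cftr*, the chloride channel of the duct surface, was lowest at 0.0278 ± 0.0158 CPM per kilobase. The hepatocyte markers (Alb, Ttr, Apoa1, Serpina1c, Cps1, Hnf4a) summed to between 58856 and 140879 CPM in every library. These are whole-liver libraries, in which fewer cells of a type and less RNA per cell cannot be told apart.

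**Figure D1:**
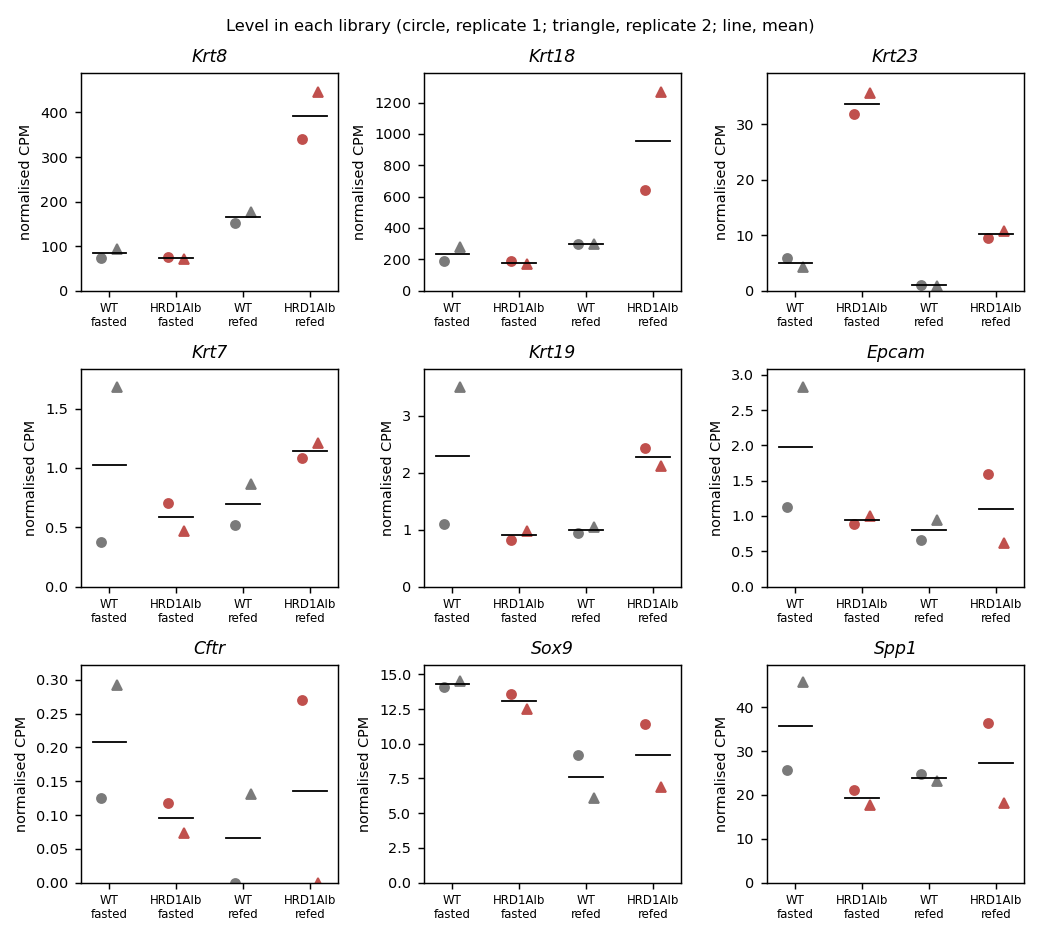
Normalised CPM of each of the 9 genes (y axis, linear, from 0) in the 4 groups (x axis), where a circle is replicate 1, a triangle is replicate 2 and the line is their mean. *Krt8* and *Krt18* are highest in the refed libraries labelled HRD1Alb, *Krt23* is highest in HRD1Alb fasted liver, and the bile duct genes are each highest in WT fasted replicate 2.

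*Krt8* and *Krt18* overlapped between genotypes in fasted liver and were higher in the refed libraries labelled HRD1Alb. *Krt8* stood at 74.3 and 92.5 CPM in WT fasted liver and at 74.6 and 72.1 in HRD1Alb fasted liver. After refeeding it stood at 153 and 177 CPM in WT and at 340 and 446 CPM in the libraries labelled HRD1Alb. The fasted groups overlapped, and the refed groups did not overlap with each other or with either fasted group.

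*Krt18*, the type I partner, stood at 187 and 280 CPM in WT fasted liver and at 188 and 170 CPM in HRD1Alb fasted liver. It stood at 295 and 297 CPM in WT refed liver and at 643 and 1266 CPM in the libraries labelled refed HRD1Alb. The last of these was 1.97-fold above its replicate, and WT refed liver lay only just above the higher of the WT fasted libraries.

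The pair lies side by side in the genome, on chromosome 15 of GRCm38 (GENCODE M21). *Krt8* (ENSMUSG00000049382) is at chr15:101996698-102004482 on the minus strand and *Krt18* (ENSMUSG00000023043) is at chr15:102028180-102032027 on the plus strand. The gap of 23.7 kb lies upstream of both genes, so that they are transcribed away from each other. The promoters of the pair are shown because the levels of these neighbours followed each other across the libraries. Each window runs from 250 bases before to 30 bases after the RefSeq start on GRCm38.p6, at chr15:102004313-102004592 (minus strand) for *Krt8* and at chr15:102027966-102028245 (plus strand) for *Krt18*. Capitals mark a TATA box match.
Krt8: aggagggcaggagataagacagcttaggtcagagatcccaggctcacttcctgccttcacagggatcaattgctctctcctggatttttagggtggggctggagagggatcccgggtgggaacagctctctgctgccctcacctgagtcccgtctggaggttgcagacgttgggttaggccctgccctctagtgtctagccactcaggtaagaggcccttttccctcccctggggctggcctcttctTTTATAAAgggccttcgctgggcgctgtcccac
Krt18: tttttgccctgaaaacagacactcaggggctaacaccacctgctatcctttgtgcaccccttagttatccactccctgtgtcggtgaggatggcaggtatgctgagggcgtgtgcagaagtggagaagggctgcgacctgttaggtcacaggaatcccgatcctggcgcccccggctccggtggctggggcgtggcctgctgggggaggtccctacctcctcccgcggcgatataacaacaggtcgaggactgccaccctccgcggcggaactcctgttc
The TATA box (TATAAA), the GC box (GGGCGG), the CCAAT box, the AP-1 motif (TGANTCA) and a C/EBP-ATF motif (TGATGCAA) were searched on both strands. In *Krt8*, the TATA box occurred as 2 overlapping matches, one on each strand, that cross the annotated start, and none of the 5 motifs occurred in *Krt18*. Over 32851 promoter windows of this length, 13.1% held the TATA box, 34.7% the GC box, 36.1% the CCAAT box, 7.46% the AP-1 motif and 0.877% the C/EBP-ATF motif. The 30 bases after the start were added once it was seen that the 250 bases before it held no match in these genes.

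In refed liver the fitted log2 difference between the libraries labelled HRD1Alb and WT was 1.25 (SE 0.200, adjusted p = 0.0153) for *Krt8* and 1.69 (SE 0.336, adjusted p = 0.0270) for *Krt18*. Of all genes tested, 11.9% were called in that comparison. In fasted liver the differences were -0.18 (SE 0.197, adjusted p = 0.688) for *Krt8* and -0.38 (SE 0.328, adjusted p = 0.598) for *Krt18*. Leaving out WT refed replicate 1 or replicate 2 ended both refed calls, with adjusted p = 0.144 and 0.124 for *Krt8* and 0.176 and 0.183 for *Krt18*, and *Krt18* also lost its call without HRD1Alb fasted replicate 1 (adjusted p = 0.0672) or replicate 2 (adjusted p = 0.0670). Without refed HRD1Alb replicate 2, the *Krt18* difference was 1.12. A fit to the 4 refed libraries alone gave adjusted p = 0.120 for *Krt8* and 0.131 for *Krt18*, with 0 of 13835 genes called.

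Refeeding itself was followed by higher levels of the pair in HRD1Alb liver. The log2 difference between refed and fasted liver there was 2.42 (SE 0.208, adjusted p = 0.00348) for *Krt8* and 2.41 (SE 0.344, adjusted p = 0.0110) for *Krt18*, where 10.5% of all genes were called. In WT liver it was 0.98 (SE 0.199, adjusted p = 0.0523) for *Krt8*, just outside the threshold, and 0.34 (SE 0.328, adjusted p = 0.709) for *Krt18*. The test of the difference between the genotypes' responses gave 1.44 (SE 0.280, adjusted p = 0.544, unadjusted p = 0.00115) for *Krt8* and 2.07 (SE 0.468, adjusted p = 0.544, unadjusted p = 0.00265) for *Krt18*, so a different response to refeeding was not shown. edgeR called 0 of the 14328 genes there (0%), with 1209 (8.44%) at an unadjusted p under 0.05. With DESeq2, 95 genes were called, *Krt8* and *Krt18* among them, so that outcome depended on the method. Without HRD1Alb fasted replicate 1 or 2, the refeeding calls in HRD1Alb liver were lost, with adjusted p = 0.0531 and 0.0538 for *Krt8* and 0.103 and 0.121 for *Krt18*. *Krt8* in WT liver was called in 10 of 18 alternatives.

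The balance of the pair was not fixed. Per kilobase of exon, the ratio of *Krt18* to *Krt8* was 3.43 and 4.13 in WT fasted liver, 3.43 and 3.22 in HRD1Alb fasted liver, 2.63 and 2.28 in WT refed liver and 2.58 and 3.87 in the libraries labelled refed HRD1Alb. WT refed liver was thus below all 4 fasted libraries, and of the refed HRD1Alb replicates one lay near WT refed liver and the other within the range of the fasted libraries. Across the 8 libraries the 2 genes' log2 CPM followed each other (Pearson r = 0.957, a description over libraries that share the group structure).

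**Figure D2:**
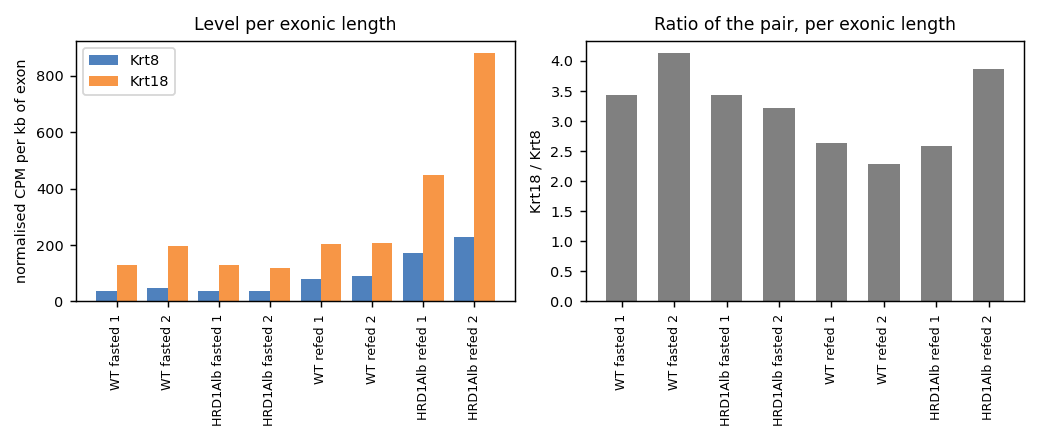
Left, normalised CPM per kilobase of exon (y axis) of *Krt8* (blue) and *Krt18* (orange) in each of the 8 libraries (x axis), and right, the ratio of *Krt18* to *Krt8* on the same scale. *Krt18* exceeds *Krt8* in every library, by 2.28 to 4.13 times, and the refed HRD1Alb replicate 2 bar of *Krt18* is the tallest.

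*Krt23* behaved differently from the pair: it was higher in HRD1Alb liver in both conditions and lower after refeeding in both genotypes. It stood at 5.84 and 4.19 CPM in WT fasted liver and at 31.8 and 35.6 CPM in HRD1Alb fasted liver. After refeeding it stood at 1.04 and 0.867 CPM in WT and at 9.48 and 10.8 CPM in the libraries labelled HRD1Alb. No group overlapped with another, in the order WT refed, WT fasted, HRD1Alb refed and HRD1Alb fasted.

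*Krt23* (ENSMUSG00000006777) lies in the type I keratin cluster of chromosome 11, at chr11:99477974-99493137 on the minus strand. Its promoter is shown for comparison with the pair above, over the same window at chr11:99493091-99493370 (minus strand, GRCm38.p6), and held none of the 5 motifs.
Krt23: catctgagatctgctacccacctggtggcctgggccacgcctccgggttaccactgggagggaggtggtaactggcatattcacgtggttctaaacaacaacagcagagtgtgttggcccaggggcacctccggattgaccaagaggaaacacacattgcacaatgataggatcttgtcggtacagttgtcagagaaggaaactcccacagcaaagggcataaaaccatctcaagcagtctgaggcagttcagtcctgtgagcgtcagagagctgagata

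The log2 difference between HRD1Alb and WT was 2.75 (SE 0.227, adjusted p = 0.0116) in fasted liver and 3.41 (SE 0.247, adjusted p = 0.00273) in refed liver. *Krt23* was the only one of the 9 genes called in fasted liver, where 1.35% of all genes were called, and one of 3 in refed liver. It was lower after refeeding by a log2 difference of -2.39 (SE 0.243, adjusted p = 0.0120) in WT, where 2.61% of all genes were called, and of -1.73 (SE 0.217, adjusted p = 0.00774) in HRD1Alb liver. The test of the difference between the genotypes' responses gave 0.66 (SE 0.317, adjusted p = 0.601). The fitted differences moved little when a library was left out, between 2.56 and 3.005 in fasted and between 3.28 and 3.54 in refed liver.

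The calls of *Krt23* were less steady than its sizes, and calls over all genes were unsteady in the same fits. The fasted genotype call was lost without WT fasted replicate 1 (adjusted p = 0.0873) or 2 (0.0682) and without HRD1Alb fasted replicate 1 (0.129) or 2 (0.0567), and the refed one without WT refed replicate 1 (0.0575) or 2 (0.0692). The refeeding call in WT was lost without WT fasted replicate 1 (0.0510), HRD1Alb fasted replicate 1 (0.0521) or 2 (0.0532) and WT refed replicate 1 (0.0949) or 2 (0.150), and the one in HRD1Alb liver without HRD1Alb fasted replicate 1 (0.0763) or 2 (0.0892). A fit to the 4 libraries of the comparison alone gave adjusted p = 0.0553 for *Krt23* between refed genotypes and 0.0831 for refeeding in HRD1Alb liver. Those fits called 0 of 13835 and 0 of 14183 genes.

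The make-up of the keratin RNA differed accordingly. *Krt8* and *Krt18* together made up 97.4% and 97.9% of the RNA of the 5 keratin genes, per kilobase of exon, in WT fasted liver. They made up 88.9% and 86.9% in HRD1Alb fasted liver. The shares in refed liver were 99.5% in both WT libraries, and 98.7% and 99.2% in those labelled HRD1Alb. HRD1Alb fasted liver therefore had the lowest shares, the rest being mostly *Krt23*, at 21.5 ± 1.72 CPM per kilobase against 37.5 ± 0.919 for *Krt8* in the same group.

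**Figure D3:**
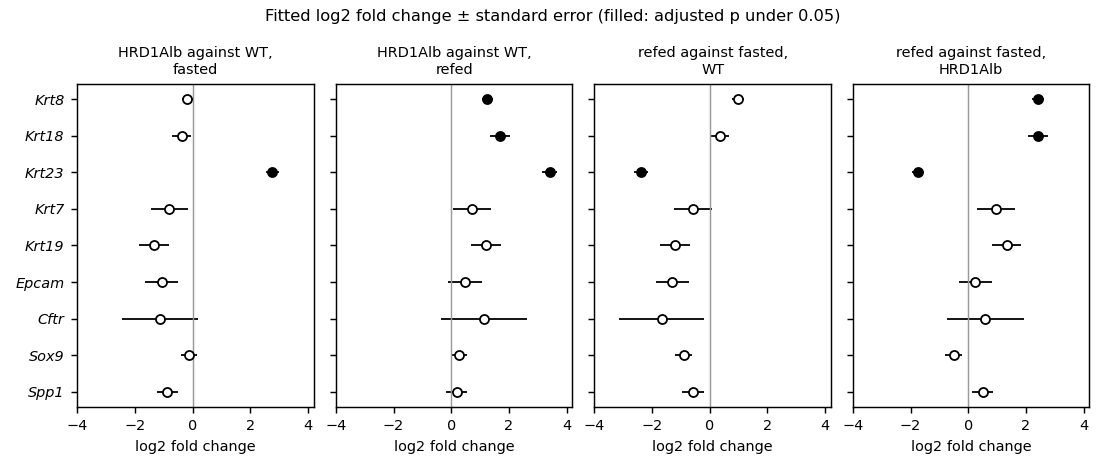
Fitted log2 fold change (x axis) with its standard error (bars) for the 9 genes (y axis) in 4 comparisons, with filled points at an adjusted p under 0.05. *Krt23* is filled in all 4 comparisons, *Krt8* and *Krt18* in the refed genotype and the HRD1Alb refeeding comparisons, and none of the bile duct genes in any.

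None of the 6 bile duct genes was called in any comparison, and several were far apart between the WT fasted replicates. *Krt19* stood at 1.10 and 3.50 CPM in WT fasted, 0.821 and 0.981 in HRD1Alb fasted, 0.938 and 1.05 in WT refed and 2.44 and 2.13 in the libraries labelled refed HRD1Alb. The lower of the WT fasted libraries was thus close to HRD1Alb fasted and WT refed liver, and the other was the highest of all 8. The log2 difference between genotypes was -1.35 (SE 0.510, adjusted p = 0.220) in fasted and 1.20 (SE 0.512, adjusted p = 0.150) in refed liver. Without WT fasted replicate 2, the fasted difference of *Krt19* was -0.25 (adjusted p = 0.876).

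*Krt7*, the type II keratin of duct cells, stood at 0.374 and 1.68 CPM in WT fasted, 0.704 and 0.472 in HRD1Alb fasted, 0.519 and 0.867 in WT refed and 1.08 and 1.21 CPM in refed HRD1Alb liver. The WT fasted libraries held both the lowest and the highest of the 8 values. The log2 difference between genotypes was -0.81 (SE 0.655, adjusted p = 0.576) in fasted liver and 0.72 (SE 0.652, adjusted p = 0.445) in refed liver. Without WT fasted replicate 2, the *Krt7* difference in fasted liver turned to 0.68 (adjusted p = 0.911).

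*Epcam* stood at 1.12 and 2.82 CPM in WT fasted, 0.880 and 0.999 in HRD1Alb fasted, 0.667 and 0.945 in WT refed and 1.59 and 0.614 in refed HRD1Alb liver, so the refed genotypes overlapped. Its log2 difference between genotypes was -1.07 (SE 0.572, adjusted p = 0.379) in fasted and 0.46 (SE 0.587, adjusted p = 0.590) in refed liver. Without refed HRD1Alb replicate 1 the latter turned to -0.40 (adjusted p = 0.878), and without WT fasted replicate 2 the former was -0.22 (adjusted p = 0.947).

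*Cftr* was near the limit of detection, with 5 and 12 counts in WT fasted, 6 and 4 in HRD1Alb fasted, 0 and 5 in WT refed and 16 and 0 in refed HRD1Alb liver. A library with 0 counts allows a level of up to 0.0741 CPM in WT refed replicate 1 and 0.0658 CPM in HRD1Alb refed replicate 2, covering counting error only. The log2 difference between genotypes was -1.12 (SE 1.32, adjusted p = 0.721) in fasted and 1.14 (SE 1.49, adjusted p = 0.605) in refed liver. With standard errors of this size, a small or moderate difference in *Cftr* was not detectable.

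*Sox9* and *Spp1* were the more abundant of the duct genes. *Sox9* stood at 14.1 and 14.5 CPM in WT fasted, 13.6 and 12.5 in HRD1Alb fasted, 9.16 and 6.12 in WT refed and 11.4 and 6.90 in refed HRD1Alb liver. All 4 refed libraries were below all 4 fasted ones, with a log2 difference of -0.90 (SE 0.292, adjusted p = 0.179) in WT and -0.51 (SE 0.288, adjusted p = 0.261) in HRD1Alb liver. Its genotype differences were small, at -0.13 (SE 0.287, adjusted p = 0.863) in fasted and 0.27 (SE 0.290, adjusted p = 0.531) in refed liver. *Sox9* was called for refeeding in WT in 4 of 18 alternatives.

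*Spp1* stood at 25.6 and 45.8 CPM in WT fasted, 21.1 and 17.7 in HRD1Alb fasted, 24.7 and 23.1 in WT refed and 36.4 and 18.3 CPM in refed HRD1Alb liver. The refed genotypes overlapped. The log2 difference between genotypes was -0.88 (SE 0.373, adjusted p = 0.267) in fasted and 0.19 (SE 0.370, adjusted p = 0.730) in refed liver, and the refed value turned to -0.40 without refed HRD1Alb replicate 1. Without WT fasted replicate 2 the fasted *Spp1* difference was -0.37 (adjusted p = 0.804), and it was called without refed HRD1Alb replicate 1 (adjusted p = 0.0434) or 2 (adjusted p = 0.0440). Macrophages can also express *Spp1*, so its level is not specific to ducts.

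The 4 most duct-restricted genes were summed to set them beside other cell types. *Krt7*, *Krt19*, *Epcam* and *Cftr* together came to 2.72 and 8.30 CPM in WT fasted, 2.52 and 2.52 in HRD1Alb fasted, 2.12 and 2.99 in WT refed and 5.38 and 3.95 CPM in refed HRD1Alb liver. WT fasted replicate 2 was 3.05-fold above its replicate. The 5 markers of mesothelium, the covering of the liver surface, which also carries keratins (Msln, Upk3b, Wt1, Lrrn4, Gpm6a), came to 29.1 CPM in that library and 4.84 in its replicate, a 6.01-fold gap. In the other groups they lay between 2.81 and 9.43 CPM. Stellate cell markers (Lrat, Dcn, Reln, Des, Pdgfrb, Col1a1) also differed between the WT fasted replicates, by 1.996-fold. The part of these cells in the duct gene values was not tested.

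Kupffer cell markers summed higher in HRD1Alb libraries in both conditions. Their 5 measured genes (Clec4f, Vsig4, Timd4, Cd5l, Marco) summed to 70.4 to 81.7 CPM in WT fasted, 192 to 266 in HRD1Alb fasted, 83.3 to 83.8 in WT refed and 172 to 399 CPM in refed HRD1Alb liver. None of the 5 was called in fasted and 4 in refed liver, all higher. Over all genes, 1.35% and 11.9% were called (0.921% and 7.09% higher). The hepatocyte markers summed lower in HRD1Alb liver, at 81558 to 82239 CPM against 128304 to 140879 in fasted and 58856 to 98576 against 103656 to 110369 CPM in refed liver, with none of the 6 called. These sums were mostly Alb. Alb, Serpina1c and Hnf4a were lower in each HRD1Alb library than in both WT libraries of its condition. The others were not: Ttr (6569 CPM) and Apoa1 (12464 CPM) in refed HRD1Alb replicate 2 exceeded both WT refed libraries. Cps1 in HRD1Alb fasted replicate 1 (6354 CPM) exceeded both WT fasted libraries. Among gut and pancreas epithelium markers (Fabp2, Alpi, Cdx2, Prss1, Cela2a, Pnliprp1), Alpi, Cdx2 and Prss1 had 0 counts in all 8 libraries, and the sum, 70.0 to 251 CPM, was mostly Fabp2, which hepatocytes may also express. *Pnliprp1*, a pancreatic lipase relative of that list, was called higher in HRD1Alb liver in fasted (adjusted p = 0.0347) and refed liver (adjusted p = 0.0190). It had 1 and 3 counts in WT fasted, 39 and 37 in HRD1Alb fasted, 1 and 1 in WT refed and 26 and 15 in refed HRD1Alb liver. The WT counts were at or below the floor of 3, and the gene passed the filter only through HRD1Alb libraries. Sinusoidal endothelium markers (Stab2, Lyve1, Oit3, Clec4g, Kdr) summed to 86.7 to 110 CPM over the 8 libraries, with none called between genotypes. Whether the keratin differences moved with cell make-up was not tested.

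**Figure D4:**
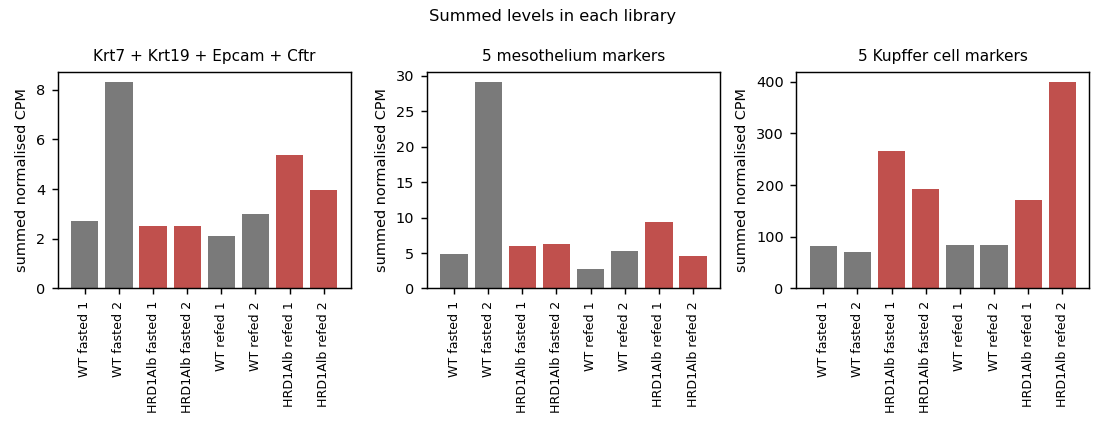
Summed normalised CPM (y axis, from 0) of 4 duct genes, 5 mesothelium markers and 5 Kupffer cell markers in each library (x axis; grey, WT; red, HRD1Alb). WT fasted replicate 2 has the tallest bar for duct genes (8.30 CPM) and mesothelium (29.1 CPM), and the HRD1Alb libraries have the taller Kupffer cell bars.

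Among the other keratins, *Krt20* in both conditions and *Krt25* in refed liver, both of the *Krt23* cluster, were called higher in HRD1Alb liver. Of 42 further keratin genes, 18 had any count and 6 were tested. In fasted liver 1 was called higher and in refed liver 2, and none was called lower. Over all genes, 0.921% and 7.09% were called higher. *Krt20* and *Krt25* passed the filter on low counts only through HRD1Alb libraries, so they could be called only as higher. These counts therefore cannot be weighed against the shares over all genes. *Krt20*, an epithelial keratin of the gut that lies 39.8 kb from *Krt23*, had 0 and 0 counts in WT fasted, 76 and 63 in HRD1Alb fasted, 0 and 2 in WT refed and 75 and 82 counts in refed HRD1Alb liver. It was at least 17.8-fold higher in HRD1Alb fasted liver, against a floor of 3 counts per library (adjusted p = 0.0319), and 58.9-fold higher in refed liver (95% counting interval 16.0 to 491, adjusted p = 0.0138).

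*Krt25*, a hair follicle keratin 155 kb from *Krt23*, had 0 and 2 counts in WT fasted, 12 and 16 in HRD1Alb fasted, 0 and 0 in WT refed and 57 and 67 in refed HRD1Alb liver. It was at least 15.9-fold higher in refed liver (adjusted p = 0.0135), and its fasted ratio was 10.7 (95% counting interval 2.70 to 92.7, adjusted p = 0.131). *Krt4*, *Krt10*, *Krt79* and *Krt222* were not called between genotypes, and of these *Krt10* and *Krt222* lie in the same chromosome 11 cluster, *Krt10* between *Krt20* and *Krt25*. Without WT refed replicate 1 or 2 the refed calls were lost, at adjusted p = 0.104 and 0.0917 for *Krt20* and 0.104 and 0.108 for *Krt25*, and without any one fasted or WT refed library the fasted call of *Krt20* was lost, at adjusted p = 0.0541 to 0.243. How reads matching more than 1 gene were treated was not given in the sources used here.

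Of the wider list of 24 bile duct genes, 19 were tested. Their fitted differences were above 0 for 4 genes in fasted liver (median -0.23 against -0.02 over all genes tested) and for 13 in refed liver. None was called in fasted liver, against 0.921% of all genes called higher and 0.433% lower. In refed liver 1 was higher and 3 were lower, against 7.09% and 4.84% of all genes, and the median log2 difference was 0.39 against 0.04 over all genes tested. *Elf3*, an epithelial transcription factor, was higher by 2.55 (SE 0.409, adjusted p = 0.0155), with 0.519 and 1.16 CPM in WT refed and 5.48 and 4.34 in refed HRD1Alb liver. *Slc10a2*, the bile acid transporter of duct cells and ileum, differed by -1.68 (SE 0.312, adjusted p = 0.0228), *Cdh1*, the adhesion protein E-cadherin, by -1.04 (SE 0.245, adjusted p = 0.0391) and *Slc4a2*, an anion exchanger, by -0.62 (SE 0.161, adjusted p = 0.0497). In fasted liver, uncalled, *Slc10a2* differed by -1.51 (SE 0.323, adjusted p = 0.0720) and *Cdh1* by -1.14 (SE 0.245, adjusted p = 0.0723), near their refed values. The fasted differences of *Slc4a2* (-0.21, adjusted p = 0.544) and *Elf3* (-0.15, adjusted p = 0.893) were small. Hepatocytes also express *Cdh1* and *Slc4a2*. Leaving out WT refed replicate 1 or 2 ended all 4 calls, with *Elf3* at adjusted p = 0.108 and 0.0917, *Slc10a2* at 0.108 and 0.170, *Cdh1* at 0.227 and 0.152 and *Slc4a2* at 0.258 and 0.221. *Slc10a2* also lost its call without HRD1Alb fasted replicate 1 or 2 (adjusted p = 0.0588 and 0.0593), and without any one fasted library *Cdh1* was at 0.0539 to 0.0894 and *Slc4a2* at 0.0774 to 0.112. An offset for transcript length gave -0.83 (adjusted p = 0.0852) for *Cdh1* and -0.40 (adjusted p = 0.127) for *Slc4a2*, and *Slc4a2* was also not called with no filter (0.0597), with 10 counts in every library (0.0562) or with a replicate block (0.0653).

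The 16 genes of keratin partners hold desmosome, linker and other intermediate filament genes. None was called in fasted liver, against 1.35% of all genes. In refed liver 2 were higher and 1 lower, against 7.09% and 4.84% of all genes. *Vim*, the filament protein of mesenchymal cells, stood at 8.07 and 9.06 CPM in WT refed and 33.7 and 31.3 CPM in refed HRD1Alb liver, a log2 difference of 1.92 (SE 0.399, adjusted p = 0.0296). *Des*, the filament protein of stellate cells, was higher by 1.57 (SE 0.388, adjusted p = 0.0441), and *Dsp*, the desmosome protein that anchors keratins, differed by -0.83 (SE 0.214, adjusted p = 0.0483). Without WT refed replicate 1 or 2, *Vim* was at adjusted p = 0.190 and 0.184, *Des* at 0.239 and 0.208 and *Dsp* at 0.199 and 0.235. *Vim* was also lost without HRD1Alb fasted replicate 1 or 2 (adjusted p = 0.0728 and 0.0730), *Des* without any one fasted library (0.0594 to 0.0969) or refed HRD1Alb replicate 2 (0.0561), and *Dsp* without any one fasted library (0.0738 to 0.0957). With an offset for transcript length the *Dsp* difference was -0.34 (adjusted p = 0.256), and it was not called with a replicate block (0.0648) or with 10 counts in every library (0.0515). The *Des* difference without refed HRD1Alb replicate 2 was 0.98. Stellate cell markers, which include *Des*, summed to 160 to 196 CPM in WT refed and 326 to 437 CPM in refed HRD1Alb liver, with 2 of 6 called higher, *Des* itself among them. In fasted liver they summed to 171 to 342 CPM in WT and 407 to 418 CPM in HRD1Alb, with 0 called. These sums were mostly Dcn. Markers of Trem2 macrophages (Trem2, Gpnmb, Cd68, Cd9, Itgax) summed to 20.3 to 22.6 CPM in WT refed and 39.2 to 51.5 CPM in refed HRD1Alb liver, with 4 of 5 called higher. In fasted liver they summed to 20.6 to 30.9 CPM in WT and 28.0 to 44.6 CPM in HRD1Alb, with 1 called higher. The part of stellate cells and macrophages in the *Vim* and *Des* values was not tested.

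The Notch and YAP pathways, which guide duct cell identity, had 16 tested genes. None was called in fasted and 1 in refed liver, against 1.35% and 11.9% of all genes. That gene, *Ctgf*, was higher by 1.66 (SE 0.421, adjusted p = 0.0466). It stood at 1.83 and 2.70 CPM in WT refed and 10.004 and 4.27 CPM in refed HRD1Alb liver, and without WT refed replicate 1 or 2 its adjusted p was 0.252 and 0.189. Without any one fasted library it was 0.0731 to 0.0990, with limma-trend 0.0519 and with a replicate block 0.0656. The refed *Ctgf* difference was 0.91 without refed HRD1Alb replicate 1 and 2.14 without replicate 2. In fasted liver *Ctgf* was uncalled at a similar size, 1.45 (adjusted p = 0.124). It was called there by DESeq2 (adjusted p = 0.0139) and with the 4 fasted libraries alone (adjusted p = 0.0128). Those fits called 1094 of 14328 and 2033 of 13945 genes.

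The genes whose log2 CPM followed each keratin most closely over the 8 libraries, out of 11921 with a mean of at least 1 CPM, are given as a description, since the libraries share the group structure and depth. For *Krt8* they were *Hnrnpab* (Pearson r = 0.991), *Cxcl10* (r = 0.990) and *Arpp19* (r = 0.989). *Cxcl10*, a chemokine, stood at 4.12 and 4.41 CPM in WT refed and 7.69 and 10.9 CPM in refed HRD1Alb liver against 1.27 to 1.73 CPM in the 4 fasted libraries. For *Krt18* they were *Calm2* (r = 0.988), *Gtf2f2* (r = 0.987) and *Cd3eap* (r = 0.987). For *Krt23* they were *Sult1e1*, the oestrogen sulfotransferase (r = 0.985), *Slc6a8*, the creatine transporter (r = 0.982), and *Leprel4* (r = 0.980). *Sult1e1* stood at 3.05 and 4.09 CPM in HRD1Alb fasted liver and 0.524 and 0.487 in WT fasted liver. For *Krt19* they were *Lama4* (r = 0.962), *Nicn1* (r = 0.933) and *Strap* (r = 0.914). Among the 9 genes, *Epcam* followed *Spp1* (r = 0.869) and *Cftr* (r = 0.840), and *Krt7* followed *Krt19* (r = 0.832), while *Krt23* did not follow *Krt8* (r = -0.229) or *Krt18* (r = -0.0808).

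**Figure D5:**
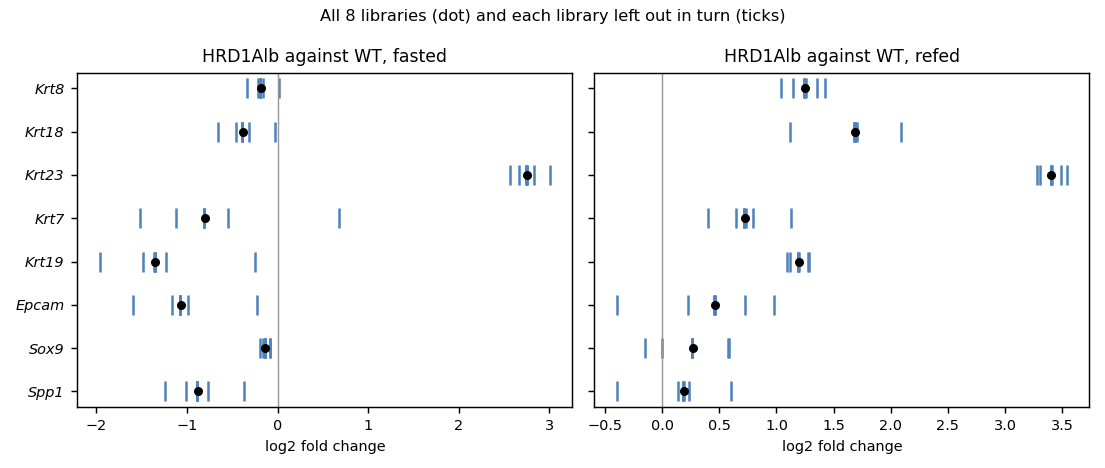
Fitted log2 fold change between HRD1Alb and WT (x axis) for 8 of the genes (y axis; *Cftr*, near its detection limit, is left out) with all 8 libraries (black dot) and with each library left out in turn (blue ticks), in fasted (left) and refed (right) liver. The ticks of *Krt23* stay at or above 2.56 in both panels, and those of *Krt7* and *Krt8* in fasted and of *Epcam*, *Sox9* and *Spp1* in refed liver lie on both sides of 0.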

How the data were processed

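Liver RNA from 2 libraries in each of 4 groups (WT or HRD1Alb, fasted or refed for 4 h) was sequenced by the authors on an Illumina NextSeq. The deposited values are raw counts of reads per gene symbol, without normalisation. The methods name ERANGE for counting, with limma for testing, while the submitters' processing notes name cutadapt, STAR, HTSeq, DESeq2 and mm10, so which counter made these values could not be settled. Strand use and multi-mapped reads were not given in the sources used here.

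Groups followed the labels. Counts were analysed with edgeR 4.0.16 in R 4.3.3: filterByExpr (minimum count 10, minimum total 15) kept 14328 of 23337 symbols, TMM factors were 0.837 to 1.22, and 1 quasi-likelihood model with 4 group coefficients was fitted to the 8 libraries. SE was taken from F, as the size of a log2 fold change over the root of F. Log CPM used a prior count of 1. Alternatives were RLE scaling, DESeq2 1.42.0, limma-trend (limma 3.58.1), other filters, a fit to the 4 libraries of each contrast alone, a block for replicate number, an offset for transcript length (known for 98.9% of tested genes), each library left out, and, chosen after seeing the data, 2 libraries left out together. The script was tested on simulated data with the same dispersion for every gene and group. That checks the code, and not the calls under the uneven spread of these libraries. Intervals and the floor of 3 counts cover counting error only.

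The 9 genes and all lists were chosen with earlier results of these data known. Named genes were all 9, list genes called between genotypes (at most 6 of the largest per list), the 3 best correlates of each of 4 keratins, *Syvn1* and defining markers of cell types. Positions came from GENCODE M21 (20953 symbols matched directly and 1891 by synonym) and promoters from RefSeq on GRCm38.p6, where *Krt19* and *Sox9* had no entry. Figures used Python 3.11.15 and matplotlib 3.10.9.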

Additional observations from a re-analysis of the deposited data

Results flagged for a closer look

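*Krt19* was picked out because its genotype difference had opposite signs in the 2 conditions. Both HRD1Alb fasted libraries lay below both WT fasted libraries (log2 difference -1.35), and both libraries labelled refed HRD1Alb lay above both WT refed libraries (1.20). The test of the difference between the conditions gave 2.55 (SE 0.723, adjusted p = 0.561, unadjusted p = 0.00886), and its adjusted p over the alternatives ran from 0.0494 to 0.904. Without WT fasted replicate 2, which holds the highest *Krt19* level of all libraries, the value was 1.45 (adjusted p = 0.904).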

How the results depend on the processing

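Counts of called genes depended on which libraries entered the fit. For the 9 genes, leaving out 1 library gave 0 to 2 called between fasted genotypes, 0 to 3 between refed genotypes, 0 to 3 for refeeding in WT, 0 to 4 for refeeding in HRD1Alb and 0 to 3 for the difference between responses. For the lists it gave 0 to 2 (fasted) and 0 to 9 (refed) bile duct genes, 0 to 1 and 0 to 10 keratin partners, 0 to 4 and 0 to 8 Notch and YAP genes, and 0 to 2 and 0 to 5 other keratins. Over all genes, 1 or 2 were called between refed genotypes without a WT refed library, 7705 without refed HRD1Alb replicate 1 and 3466 without replicate 2.

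With only the 4 libraries of a contrast, 0 of the 9 genes were called between refed genotypes and 0 for refeeding in HRD1Alb, and 3 for refeeding in WT. Over all genes, 0 of 13835, 0 of 14183 and 1882 of 13406 were called there. Lists then gave 2 bile duct and 2 Notch and YAP genes in fasted liver, where 2033 of 13945 genes were called. In refed liver they gave 0 of every list. Without both libraries that stand apart (WT fasted replicate 2 and refed HRD1Alb replicate 2), WT fasted and refed HRD1Alb liver keep 1 library each. Calls of that fit are not counted here. DESeq2 gave 2 of the 9 genes for refeeding in WT and 2 for the difference between responses. Over all 14328 genes it called 1086 and 95 there. It gave 2 bile duct genes and 1 Notch and YAP gene in fasted liver, with 1094 of all genes called. In refed liver it gave 5 keratin partners and 2 Notch and YAP genes, with 3178 of all genes called.

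Refeeding in WT gave 2 of the 9 genes with limma-trend, no filter and either length offset. Over all genes, limma-trend called 405 there, no filter 445, and the length offset 869 without and 788 with the replicate block. The length offset gave 1 bile duct gene in fasted liver, and 2 bile duct and 3 Notch and YAP genes in refed liver. It called 813 and 2744 of all genes in fasted and refed liver. With the replicate block added it gave 1 bile duct gene and 1 keratin partner in fasted and 3 Notch and YAP genes in refed liver. It then called 633 and 2626 of all genes. limma-trend gave 0 Notch and YAP genes in refed liver, where it called 1734 of all genes. The filter of 10 counts in every library removed *Krt20* and *Krt25* before testing. It thus left 0 other keratins called in either condition, which is no test of those genes. Same-numbered libraries did not deviate together (r = 0.0161 to 0.179 over 6 pairs), so the numbers do not pair them. The replicate block gave 2 of the 9 genes for refeeding in WT and 0 Notch and YAP genes in refed liver. It called 305 of all genes for refeeding in WT and 1396 between refed genotypes.

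Directions of some uncalled values turned when 1 library was left out. Between fasted genotypes the values then ran from -1.52 to 0.68 for *Krt7*, from -0.34 to 0.013 for *Krt8* and from -0.34 to 0.088 for *Elf3*, each highest without WT fasted replicate 2, and from -0.38 to 1.04 for *Vim*. Between refed genotypes they ran from -0.40 to 0.98 for *Epcam*, -0.15 to 0.58 for *Sox9*, -4.57 to 5.79 for *Cftr* and -0.40 to 0.60 for *Spp1*, each lowest without refed HRD1Alb replicate 1, and *Sox9* was -0.0028 without WT refed replicate 2. Refeeding ran from -1.28 to 0.91 for *Krt7* in WT, and in HRD1Alb from -0.62 to 0.76 for *Epcam*, -5.11 to 1.49 for *Cftr* and -0.090 to 0.91 for *Spp1*. The difference between responses ran from -0.018 to 0.73 for *Sox9* and -3.45 to 6.92 for *Cftr*. Without both libraries, *Krt7* was 0.68 between fasted genotypes, 0.91 for refeeding in WT and -0.049 for the difference between responses, *Krt8* was 0.014 and *Elf3* 0.088 between fasted genotypes. *Cftr* for refeeding in HRD1Alb was -0.53 with limma-trend, and *Spp1* between refed genotypes was -0.049 with the length offset and block. The cause was not tested. The called differences of *Krt8*, *Krt18* and *Krt23* kept their direction in every alternative run. Depth limits *Cftr* most, with at most 16 counts in a library.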
